A study of Homo sapiens with 4 samples.

Results

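The measurements concern 42 genes of DNA repair and DNA damage signalling in IMR90 cells, a primary human lung fibroblast line of fetal origin. The genes were taken from a fixed list of symbols, each read over its annotated span, and 42 of the 42 listed symbols were measured, out of 19511 measured protein-coding genes. MacroH2A1, a histone H2A variant that carries a large macro domain behind its histone fold, was mapped in these cells by chromatin immunoprecipitation and sequencing (ChIP-seq). The samples were 2 macroH2A1 ChIP libraries, made with a Millipore antibody and labelled as biological replicates, and 2 input libraries from sheared chromatin without antibody. All 4 came from the same line grown in serum-containing medium with no treatment named in the labels, so the data hold no damaged, mutant or depleted group, and the inputs enter only as the denominator of the authors' ratio. Expression was not measured in these files, so the fibroblast label and the activity of the genes could not be checked.

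Cells respond to DNA breaks through sensor complexes and kinases. The MRE11-RAD50-NBN complex recruits the kinase ATM to double-strand breaks, and ATRIP brings ATR to exposed single-stranded DNA. The breaks are then joined end to end or copied from a sister chromatid, while damaged or mispaired bases are cut out by the excision and mismatch pathways. MacroH2A1 is known for broad domains over silent chromatin and the inactive X chromosome, and the macro domain of a splice form binds ADP-ribose, a signal made at DNA breaks.

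Each value is a log2 ratio of ChIP over input averaged over the assayed bases of a gene, so 0 is a ratio of 1 and negative values lie below the input. The ratio is relative within a library. The authors give 1 value per genome segment, with a median segment of 27.4 kb in replicate 1 and 53.7 kb in replicate 2, so shorter features inside a segment are not seen. Of the 42 repair genes, 17 lay wholly inside 1 segment in replicate 1 and 22 in replicate 2, against 51.5% and 64.6% of all measured genes. A base was called covered when it lay in both replicates in a segment with a log2 ratio above 0 and a −log10 p of at least 2. Read depth was not given. The error of each value is the spread between the 2 ChIP replicates, and a single ChIP group allows no test between samples, so the counts below are descriptions.

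The 300 bases before the gene start are shown for 4 of the genes on which the results turn: FANCC, whose start window lay above 0, MSH6 and ERCC1, whose annotated and canonical starts gave different readings, and ATM, a kinase at the head of the pathway with a start well below the input. The sequences are from hg19, on the strand of the gene, 5′ to 3′, with each CG dinucleotide in capitals. The canonical start is that of the Ensembl canonical transcript. The stretches are chr9:98079992-98080291 (−) for FANCC, chr2:48009984-48010283 (+) and chr2:47922369-47922668 (+) for the canonical and annotated starts of MSH6, chr19:45927176-45927475 (−) and chr19:45982087-45982386 (−) for those of ERCC1, and chr11:108093494-108093793 (+) for ATM.
FANCC, canonical start: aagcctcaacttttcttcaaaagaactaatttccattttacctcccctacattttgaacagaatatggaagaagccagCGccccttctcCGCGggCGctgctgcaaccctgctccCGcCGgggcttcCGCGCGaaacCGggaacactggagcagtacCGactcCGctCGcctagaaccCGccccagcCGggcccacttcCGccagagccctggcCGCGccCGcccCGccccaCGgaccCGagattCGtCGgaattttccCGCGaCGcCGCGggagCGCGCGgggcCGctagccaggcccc
MSH6, canonical start: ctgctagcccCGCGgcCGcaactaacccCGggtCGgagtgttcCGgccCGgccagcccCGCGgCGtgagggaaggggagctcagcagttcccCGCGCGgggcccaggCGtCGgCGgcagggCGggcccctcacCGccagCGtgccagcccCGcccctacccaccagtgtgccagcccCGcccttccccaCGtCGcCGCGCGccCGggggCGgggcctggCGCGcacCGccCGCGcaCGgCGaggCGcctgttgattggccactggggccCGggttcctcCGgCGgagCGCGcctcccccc
MSH6, annotated gene start: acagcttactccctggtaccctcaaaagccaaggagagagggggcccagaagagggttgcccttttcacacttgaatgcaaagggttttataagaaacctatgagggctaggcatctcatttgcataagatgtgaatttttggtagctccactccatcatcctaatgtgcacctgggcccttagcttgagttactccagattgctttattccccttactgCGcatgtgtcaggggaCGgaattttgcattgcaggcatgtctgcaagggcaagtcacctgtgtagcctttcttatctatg
ERCC1, canonical start: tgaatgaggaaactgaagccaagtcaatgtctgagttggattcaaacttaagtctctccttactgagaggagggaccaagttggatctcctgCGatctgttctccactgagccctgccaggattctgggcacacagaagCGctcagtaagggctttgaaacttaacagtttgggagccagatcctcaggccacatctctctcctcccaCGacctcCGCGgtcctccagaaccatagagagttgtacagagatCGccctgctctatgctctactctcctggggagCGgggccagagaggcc
ERCC1, annotated gene start: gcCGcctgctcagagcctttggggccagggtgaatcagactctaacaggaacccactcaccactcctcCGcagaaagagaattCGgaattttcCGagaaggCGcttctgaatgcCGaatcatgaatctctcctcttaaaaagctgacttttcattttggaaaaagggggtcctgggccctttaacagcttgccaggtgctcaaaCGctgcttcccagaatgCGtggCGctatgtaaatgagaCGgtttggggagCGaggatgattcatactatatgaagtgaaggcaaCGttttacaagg
ATM, canonical start: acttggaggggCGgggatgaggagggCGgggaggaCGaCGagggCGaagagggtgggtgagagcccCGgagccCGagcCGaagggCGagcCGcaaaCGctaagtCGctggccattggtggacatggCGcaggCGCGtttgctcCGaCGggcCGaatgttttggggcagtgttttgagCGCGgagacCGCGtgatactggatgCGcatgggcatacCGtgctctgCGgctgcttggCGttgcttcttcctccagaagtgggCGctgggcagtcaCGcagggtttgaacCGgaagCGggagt

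MSH6 had 41 CG dinucleotides before its canonical start and 2 before its annotated start. FANCC had 33 and ATM had 30 before the canonical start. ERCC1 was CG-poor at both starts, with 7 at the canonical and 12 at the annotated one. Over all repair genes the count before the canonical start ran between 6 (CHEK1) and 41 (MSH6) with a median of 23.5, and the median of all measured genes was 21. Among all measured genes, windows above 0 in both replicates made up 15.7% of starts with 25 or more CG dinucleotides and 39.4% of starts with fewer than 5. No repair gene had fewer than 5. Of repair genes with 5 to under 15, such windows were found in 0 of 4, against 36.7% of all measured genes. With 15 to under 25 they were found in 0 of 20, against 16.4%, and with 25 or more in 1 of 18, against 15.7%. A CCAAT box (CCAAT on either strand) stood in these 300 bases of 19 repair genes, or 45.2%, against 37.5% of all measured genes. A GC box (GGGCGG on either strand) stood in 28, or 66.7%, against 61.1%. An E2F-type motif (TTTCGCGC or TTTGGCGC on either strand, which can overlap a GC box) stood in MSH3 and FANCC, or 4.76%, against 1.48%. These matches are descriptions of letters and not of bound sites.

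MacroH2A1 was low over most of the repair genes. The median log2 ratio over the 42 genes was −1.69 in replicate 1 and −1.79 in replicate 2, and that of the mean of both was −1.69, against −0.81 for all measured genes and −0.90 for autosomal ones. No repair gene lies on the X chromosome. The gene means ran between −2.44 (XRCC3) and 0.68 (RAD51B). Across the 42 genes the replicates had a Pearson r of 0.896, as a description of segment values that share neighbours, and their median absolute difference was 0.20. RAD51C was the gene with the largest difference, 1.20.

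Only RAD51B, ERCC1 and MSH6 were covered over at least 50% of their span, which is 7.14% of the repair genes against 19.2% of all measured genes and 17.4% of autosomal ones. No base was covered in 36 repair genes, or 85.7%, against 69.5% of all measured genes. The ratio was below −1 in both replicates in 30, or 71.4%, against 42.3%. It was below −2 in both in 8, or 19%, against 12.2%. By the counts of covered genes, of genes without a covered base and of genes below −1, the list lay toward the low end of the genome. The share below −2 was nearer to that of all measured genes. The 8 genes below −2 were ATRIP, RNF8, RNF168, PALB2, XRCC3, XRCC5, PRKDC and ERCC2. A ratio above 0 in both replicates was found in RAD51B alone, or 2.38%, against 22.8% of all measured genes. Signs differed between the replicates in RAD51C and ERCC1, or 4.76%, against 7.5%.

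**Figure D1:**
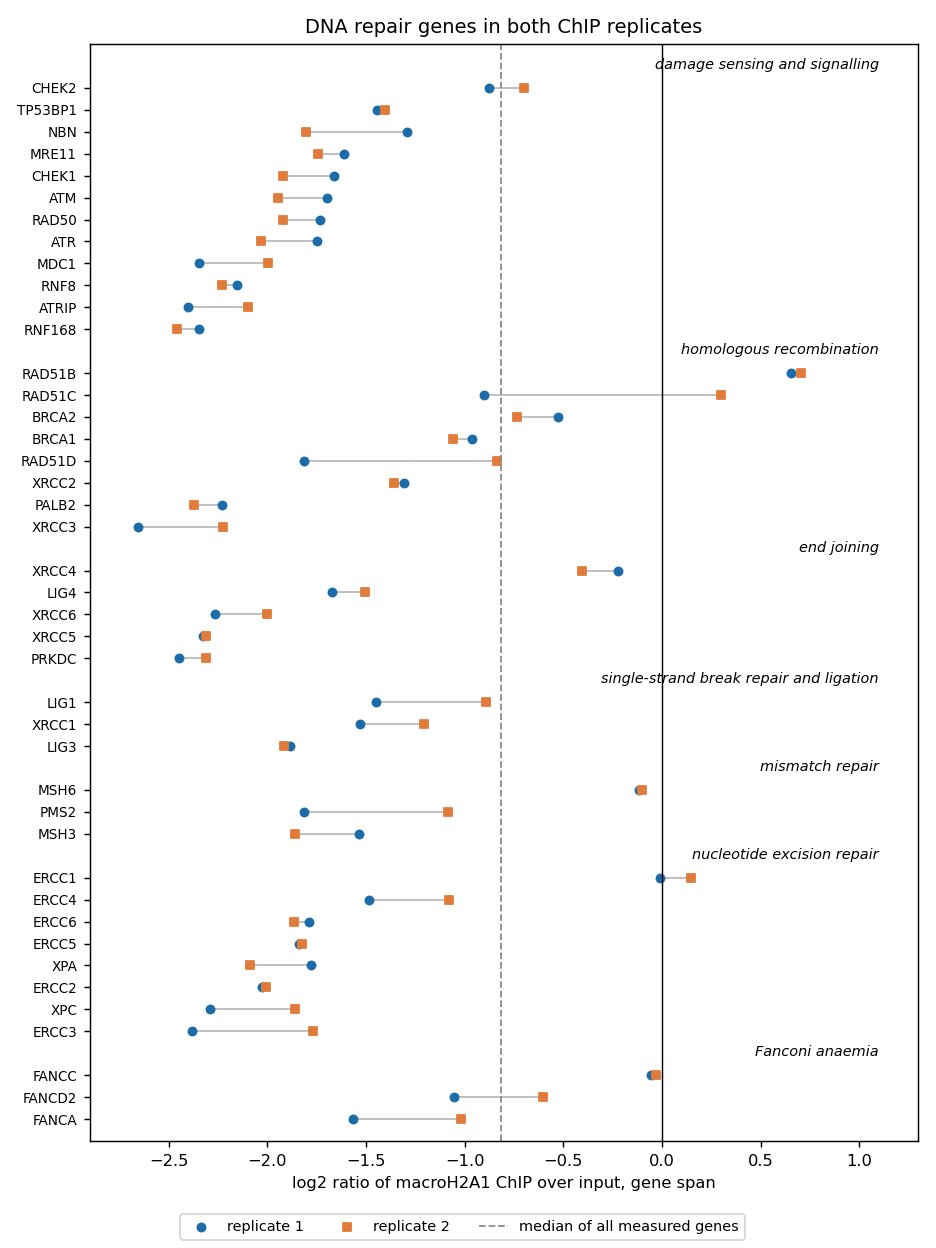
Log2 ratio of macroH2A1 ChIP over input across the annotated span of each of the 42 repair genes, grouped by role, with replicate 1 as circles, replicate 2 as squares, and the median of all measured genes (−0.81) as a dashed line. RAD51B is the gene with both points above 0, ERCC1, MSH6 and FANCC lie near 0, and 30 genes have both points below −1.

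Among the 12 genes of damage sensing and signalling, 11 were below −1 in both replicates, against 42.3% of all measured genes. The group medians were −1.71 in replicate 1 and −1.93 in replicate 2. The lowest was RNF168, a ubiquitin ligase that marks histone H2A at breaks, at −2.35 and −2.46 in replicates 1 and 2 (mean −2.40, SD 0.08, n = 2). ATRIP, the partner of ATR, was at −2.40 and −2.10 (mean −2.25, SD 0.22, n = 2). The 3 members of the break-sensing complex, MRE11, RAD50 and NBN, had means of −1.68, −1.83 and −1.55, with 9.15% of NBN covered in replicate 1 alone. ATM was at −1.70 and −1.95 (mean −1.82, SD 0.18, n = 2) and ATR at −1.75 and −2.03 (mean −1.89, SD 0.20, n = 2). The checkpoint kinase CHEK1, the scaffold MDC1 and the ubiquitin ligase RNF8 had means of −1.79, −2.17 and −2.19.

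CHEK2, a checkpoint kinase downstream of ATM, was the highest of this group at −0.88 and −0.70 (mean −0.79, SD 0.13, n = 2). It was the gene of the group with a ratio above −1 in both replicates. It held a covered stretch of 3.76 kb, chr22:29108791-29112547 in intron 5 of the canonical transcript, with log2 ratios of 0.88 and 0.79. The segments on either side of that stretch had values below 0 in both replicates. TP53BP1, which binds modified histones beside breaks, was at −1.44 and −1.41 (mean −1.42, SD 0.03, n = 2). It was covered over 12.5% of its annotated span, all of it upstream of the canonical start, where a stretch of 13.4 kb had ratios of 1.00 and 0.58. Over the canonical transcript of TP53BP1 no base was covered, and the ratios were −1.80 and −1.77.

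The 8 genes of homologous recombination were spread over the whole range of the list, with group medians of −1.14 and −0.95. Of the 8, 3 were below −1 in both replicates, a share not above the 42.3% of all measured genes. PALB2, which links the BRCA1 and BRCA2 proteins, was at −2.23 and −2.37 (mean −2.30, SD 0.10, n = 2), and XRCC3, a paralogue of the recombinase, was at −2.66 and −2.23 (mean −2.44, SD 0.30, n = 2). XRCC3 was lower than all but 4.55% of the measured genes. BRCA1 and BRCA2 were at −0.96 and −1.06 and at −0.53 and −0.74. Neither had a covered base, like 69.5% of all measured genes. RAD51D, a further paralogue, was at −1.81 and −0.84, with a spread (SD 0.69, n = 2) that leaves its level uncertain, and XRCC2 was at −1.31 and −1.36.

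RAD51B, a paralogue that helps to load the recombinase onto DNA, was higher than its 4 paralogues in the list in both replicates. It was at 0.66 and 0.70 (mean 0.68, SD 0.03, n = 2), covered over 84.3% of its span, and higher than 91.0% of all measured genes. The gene spans chr14:68286496-69196935 (+), or 910 kb, of which the canonical transcript takes 658 kb. Over the canonical transcript alone the ratios were 0.56 and 0.51, with 82.1% covered.

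The covered part of RAD51B did not begin at its start. The 50 kb upstream of the gene were at −2.29 and −2.48, and the 5-kb window at the start was at −1.93 and −0.75. The first segment above 0 began 115 kb into the gene in replicate 1 and 88.5 kb into it in replicate 2, in both cases in intron 7. Between the start and that point lay segments of intermediate value, −0.88 and −0.28 in replicate 1 and a single one of −0.75 in replicate 2. Beyond it the gene was covered almost without a break, in pieces of 155, 339, 35.9, 6.05 and 223 kb, whose mean ratios ran between 0.65 and 1.14. The highest segment, at 2.29 in replicate 1 and 2.32 in replicate 2, began 847 kb from the start in both, beyond the end of the canonical transcript, and was 4.17 kb long in replicate 1 and 6.62 kb in replicate 2. The 50 kb downstream of the gene were at 1.03 and 1.40, so the covered domain ran past its annotated end.

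RAD51C, another paralogue, gave different readings in the replicates, −0.90 and 0.30 (mean −0.30, SD 0.85, n = 2). In replicate 1 a segment of 45.8 kb at −0.90 fitted the gene, with edges 1.08 kb before its start and 44.7 kb after it, and the segments beside it were at 0.21 and 0.95. In replicate 2 a single segment at 0.30 spanned the gene and both flanks. The gene was therefore 0% covered in replicate 1 and 100% in replicate 2, and the replicates give no common reading of it.

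The end joining genes were among the lowest, with group medians of −2.26 and −1.999. Of the 5, 4 were below −1 in both replicates, against 42.3% of all measured genes. PRKDC, the catalytic subunit of the DNA-dependent protein kinase, was at −2.45 and −2.31 (mean −2.38, SD 0.10, n = 2). Its 187 kb lay inside 1 segment in each replicate, of 201 kb in replicate 1 and 202 kb in replicate 2. XRCC5, the larger subunit of the Ku heterodimer that caps broken ends, was at −2.33 and −2.31 (mean −2.32, SD 0.01, n = 2). Its partner XRCC6 had a mean of −2.13. LIG4, the ligase of the pathway, was at −1.67 and −1.51 (mean −1.59, SD 0.12, n = 2).

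XRCC4, the scaffold of LIG4, was the exception in this group, at −0.22 and −0.40 (mean −0.31, SD 0.13, n = 2). Its start lay in a segment of −2.40 in replicate 1 and −2.12 in replicate 2. Segments further along the gene were higher in replicate 1, with 0.19 over 126 kb that began 134 kb from the start, before a segment of −0.67 at its end. In replicate 2 the matching stretch was at −0.24, so 44.9% of XRCC4 was covered in replicate 1 and none in replicate 2. Segments that began 284 kb from the start in replicate 1 and 288 kb in replicate 2, beyond the end of the gene, were at 1.07 and 1.00.

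**Figure D2:**
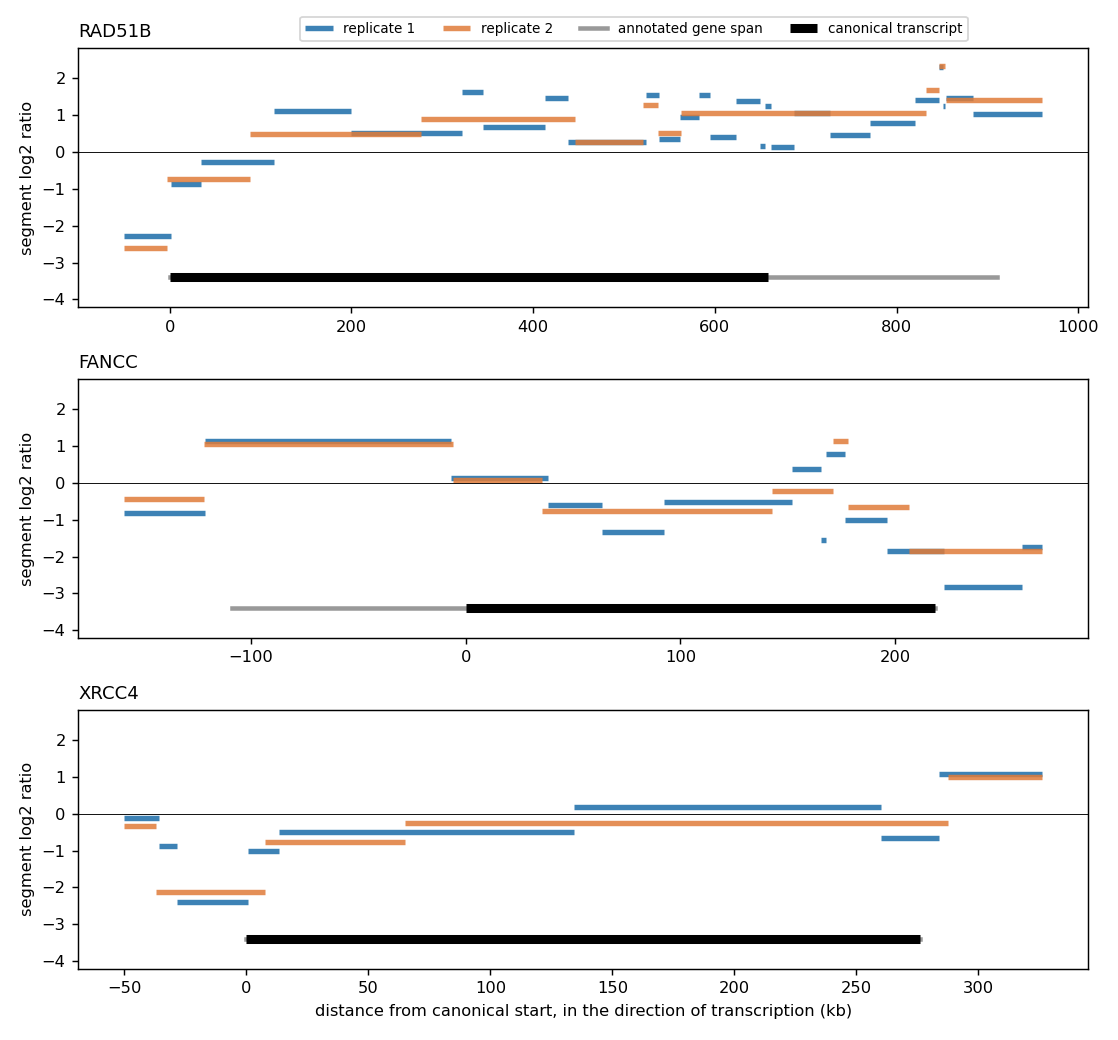
Deposited segment values (log2 ratio of ChIP over input) along RAD51B, FANCC and XRCC4 and 50 kb on either side, against the distance from the canonical start in the direction of transcription, for replicate 1 (blue) and replicate 2 (orange), with the annotated span in grey and the canonical transcript in black. RAD51B goes above 0 at 115 kb in replicate 1 and 88.5 kb in replicate 2, and FANCC is high upstream of its canonical start. XRCC4 differs in sign between the replicates from 134 to 260 kb.

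The 3 genes of single-strand break repair and ligation held no covered base, as did 69.5% of all measured genes. XRCC1, a scaffold that gathers the repair enzymes at nicks, was at −1.53 and −1.21 (mean −1.37, SD 0.23, n = 2). LIG3, its ligase partner, was at −1.89 and −1.91 (mean −1.90, SD 0.02, n = 2). LIG1, which seals replication fragments, was at −1.45 and −0.89 (mean −1.17, SD 0.39, n = 2). LIG3 lay in a single segment of each replicate that ran beyond both its ends.

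Of the mismatch repair genes, MSH3 and PMS2 held no covered base, as did 69.5% of all measured genes. MSH3, which recognises loops of unpaired bases, was at −1.54 and −1.86 (mean −1.70, SD 0.23, n = 2). PMS2, an endonuclease of the pathway, was at −1.82 and −1.09 (mean −1.45, SD 0.52, n = 2), with 82.1% of its span assayed, and it has near-identical copies in the genome, so its value is uncertain. MSH6, which recognises single mispairs, was at −0.12 and −0.10 (mean −0.11, SD 0.01, n = 2) and 73.3% covered over its annotated span, chr2:47922669-48037202 (+).

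The covered part of MSH6 lay outside its canonical transcript. The annotated span of 115 kb holds the canonical transcript of 23.8 kb at its downstream end, and that transcript was at −1.97 and −2.04 with no base covered. The covered 84.0 kb had ratios of 0.56 and 0.59 and ended 3.61 kb upstream of the canonical start. Across that edge the segment value changed to −1.97, against 0.87 upstream of it, in replicate 1, and to −2.04, against 0.93, in replicate 2.

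Of the 8 nucleotide excision repair genes, 7 were below −1 in both replicates, against 42.3% of all measured genes. The group medians were −1.81 and −1.84. ERCC3, a helicase of the general transcription factor TFIIH, was at −2.38 and −1.77 (mean −2.08, SD 0.43, n = 2). XPC, which finds the lesions, was at −2.29 and −1.86 (mean −2.08, SD 0.31, n = 2). ERCC4, the nuclease partner of ERCC1, was at −1.49 and −1.08 (mean −1.28, SD 0.29, n = 2). It lay below both of its 50-kb flanks, which were at 0.60 and 0.32 upstream and at 0.80 and 0.75 downstream. The remaining 4 genes of the group, ERCC2, ERCC5, ERCC6 and XPA, had means between −2.02 and −1.83. They held no covered base, as did 69.5% of all measured genes.

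ERCC1 was the eighth, at −0.01 and 0.15 (mean 0.07, SD 0.11, n = 2) over its annotated span, chr19:45910592-45982086 (−), of which 57.5% was covered. As in MSH6, the covered part lay upstream of the canonical transcript. That transcript takes 16.6 of the 71.5 kb and was at −2.40 and −2.20, with no base covered. A stretch of 41.1 kb upstream of it had ratios of 1.06 and 1.17 and ended 1.59 kb before the canonical start. Within that stretch, segments of 15.3 kb in replicate 1 and 14.7 kb in replicate 2 reached 1.55 and 1.82. FOSB, at −0.57 and 0.20, overlaps the annotated span of ERCC1.

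Of the 3 Fanconi anaemia genes, which serve the repair of crosslinks between strands, FANCA was at −1.56 and −1.02 (mean −1.29, SD 0.39, n = 2). FANCD2, the subunit that is ubiquitinated, was at −1.05 and −0.60 (mean −0.83, SD 0.32, n = 2). Neither held a base covered in both replicates, like 69.5% of all measured genes, and 9.45% of FANCA was covered in replicate 1 alone.

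FANCC, a subunit of the core complex, was at −0.05 and −0.03 (mean −0.04, SD 0.02, n = 2), with 33.2% of its annotated span, chr9:97861336-98189078 (−), covered. A stretch of 102 kb at 1.12 and 1.05 took the upstream end of that span and ended 6.90 kb before the canonical start. Inside the canonical transcript, which was at −0.61 and −0.54, a stretch of 5.94 kb in intron 7 was covered at 0.76 and 1.11. The 5-kb window at the canonical start was at 0.14 and 0.08, in segments whose −log10 p was 1.35 and 0.56, so it was not called covered. It was the canonical start window of the list with a ratio above 0 in both replicates.

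The reading of MSH6, ERCC1 and FANCC thus differed between the annotated span and the canonical transcript, and was lower over the latter. Canonical transcripts were not lower in every gene. BRCA1 was at −0.61 and −0.56 over its canonical transcript, against −0.96 and −1.06 over its annotated span. Annotated spans were more than 1.5 times the canonical transcript in 5 repair genes, NBN, CHEK1, BRCA1, MSH6 and ERCC1, or 11.9%, against 12.5% of all measured genes. Over canonical transcripts, RAD51B alone was covered over at least 50%, or 2.38% of the repair genes, against 18.5% of all measured genes. The median over canonical transcripts was −1.83, against −0.91 for all measured genes. Windows of 5 kb at the annotated starts were above 0 in both replicates in FANCC (1.12 and 1.05), MSH6 (0.23 and 0.32) and ERCC1 (0.10 and 0.20), or 7.14%, against 25.8% of all measured genes. Those of FANCC and MSH6 were 100% covered. That of ERCC1 lay in segments whose −log10 p was 0.79 and 1.32, so it was not called covered. Windows at the annotated starts of TP53BP1 (−0.65 and 0.58) and RAD51C (−0.58 and 0.30) were above 0 in replicate 2 alone.

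**Figure D3:**
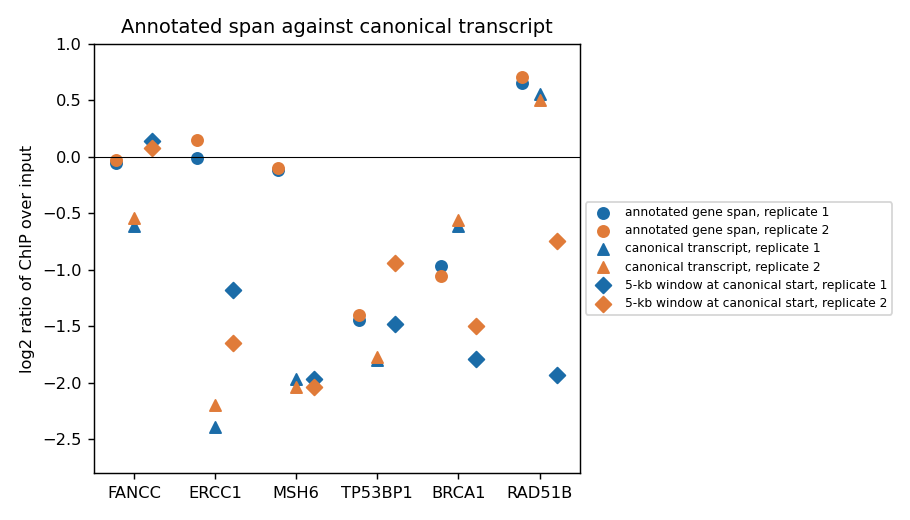
Log2 ratio in each replicate over the annotated span (circles), the canonical transcript (triangles) and the 5-kb window at the canonical start (diamonds) for FANCC, ERCC1, MSH6, TP53BP1, BRCA1 and RAD51B. ERCC1 and MSH6 lie near 0 over the annotated span and between −2.40 and −1.97 over the canonical transcript, while RAD51B stays above 0 in both and is below 0 at its start.

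Around the canonical start, macroH2A1 was low in most repair genes. The start window was below −1 in both replicates in 31 of 42, or 73.8%, against 36% of all measured genes, and above 0 in both in FANCC alone, against 23.8%. In each of the 5 bins of 5 kb that follow the start, 0 of the 42 repair genes had at least 50% of the bin covered, while in the first of these bins 19.7% of all measured genes did. Just upstream, in the bin 5 to 10 kb before the start, 11 of 42 were covered, or 26.2%, against 37.4% of all measured genes. The median log2 ratio of the repair genes was −1.87 in the first bin downstream and −1.41 in the first bin upstream, against −0.93 and −0.27 for all measured genes. In the bin farthest upstream, which begins 100 kb before the start, the medians were −0.04 and −0.28, and in the bin that ends 100 kb after the start they were −0.74 and −0.44.

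**Figure D4:**
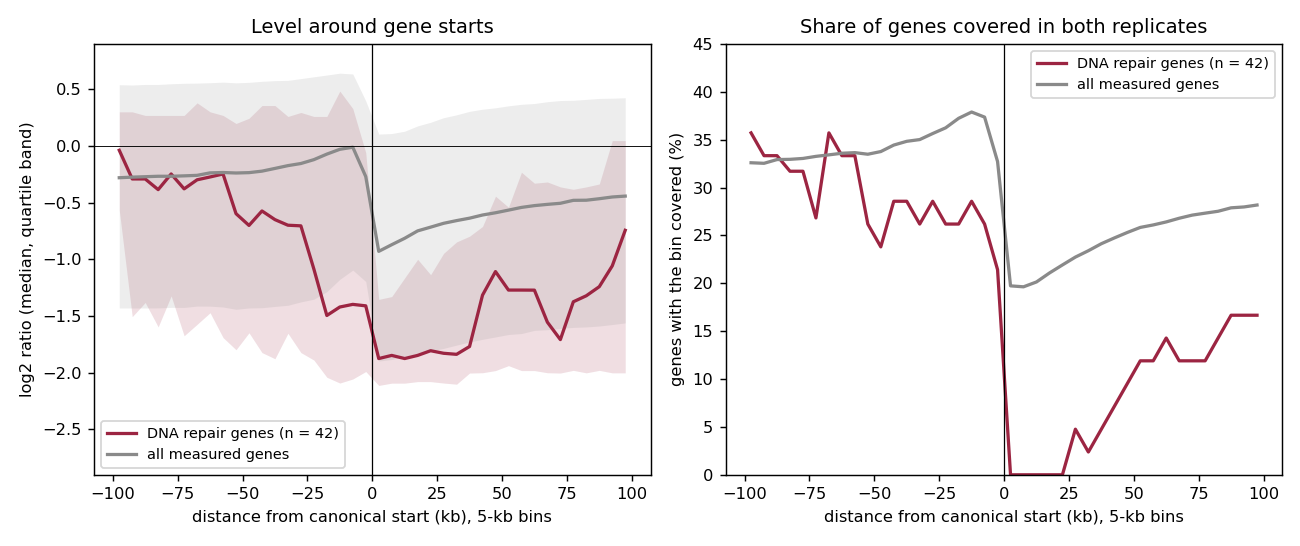
Left, median log2 ratio with a band from the lower to the upper quartile, and right, percent of genes with at least 50% of the bin covered in both replicates, in 5-kb bins by distance from the canonical start, for the 42 repair genes (red) and all measured genes (grey). No repair gene has at least 50% of a bin covered in the first 25 kb downstream of the start. Of all measured genes, 19.7% do in the first bin.

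At 10 repair genes a covered stretch ended within 10 kb upstream of the canonical start, with no covered base in the 25 kb after it. This share, 23.8%, is near the 19.7% of all measured genes with the same arrangement, so it is not particular to the list. The distance between the start and the covered stretch was 0.532 kb at XPA, 1.01 kb at RNF168, 1.05 kb at ERCC6, 1.08 kb at RAD51C, 1.59 kb at ERCC1, 1.92 kb at RAD50, 1.93 kb at TP53BP1, 2.23 kb at ERCC4, 3.61 kb at MSH6 and 6.90 kb at FANCC. In 9 of these genes the edge was seen in both replicates. The exception was RAD51C, whose start was covered in replicate 2. Over the 9 genes with an edge in both replicates it differed between them by a median of 0.55 kb and by at most 1.99 kb.

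XPA, which binds the opened lesion in nucleotide excision repair, lay closest to its edge. The stretch upstream of it was 98.2 kb long at 0.58 and 0.84, and the 25 kb after the start were at −1.78 and −2.09. At RNF168 the stretch upstream was at 0.61 and 0.63, and the 25 kb after the start were at −2.35 and −2.46. At ERCC4 these values were 1.39 and 1.24 upstream and −1.62 and −1.08 downstream. FANCC was the gene where the region after the edge stayed above 0, at 0.14 and 0.08.

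**Figure D5:**
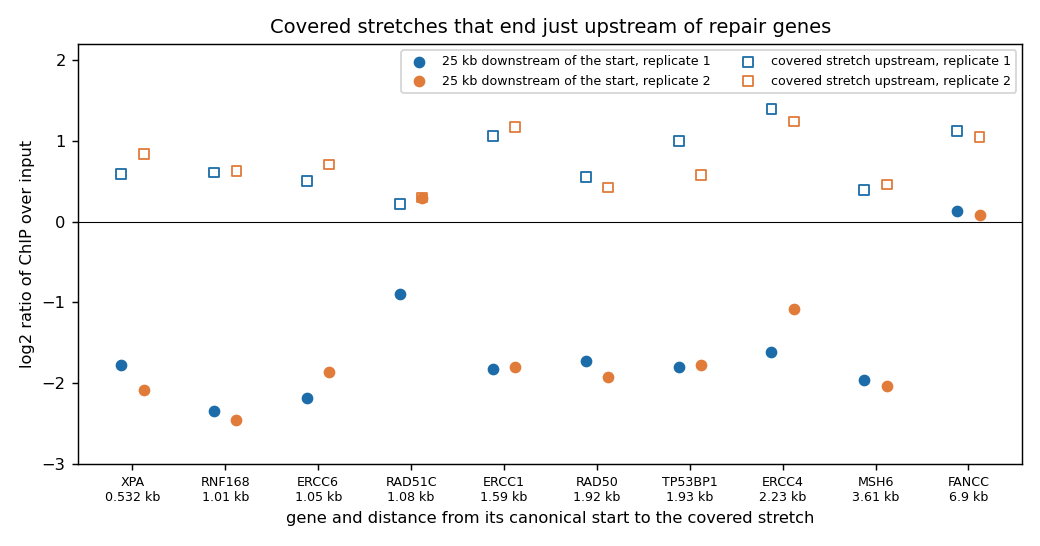
Log2 ratio in each replicate over the 25 kb downstream of the canonical start (filled circles) and over the covered stretch upstream (open squares) for the 10 repair genes with such a stretch within 10 kb, ordered by distance. All upstream values lie between 0.21 and 1.39, and all downstream values except those of FANCC and of RAD51C in replicate 2 are below 0.

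The flanks of the repair genes were higher than the genes in a part of the list. Of 41 genes with both 50-kb flanks assayed, 17 were lower than both flanks in both replicates, or 41.5%, against 36.1% of all measured genes, a share near the background. The upstream flank was above 0 in both replicates in 8, or 19.5%, against 36.2%, and the downstream flank in 7, or 17.1%, against 30.3%.

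The level differed between length classes. The 4 repair genes of 200 kb or more, RAD51B, FANCC, XRCC4 and MSH3, had a median of −0.18, against −0.49 for all measured genes of that length, of which 15.8% were covered over at least 50%. The 6 repair genes under 25 kb had a median of −2.09, against −0.75 for all measured genes under 25 kb. The 14 genes of 25 to 50 kb had a median of −1.87, against −1.19, the 12 of 50 to 100 kb a median of −1.42, against −1.04, and the 6 of 100 to 200 kb a median of −1.62, against −0.76. The repair genes had the lower median in each class under 200 kb, and the class above it holds 4 genes.

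Repair genes often had a neighbour that starts close by on the opposite strand. A coding start on the opposite strand lay within 1 kb of the canonical start in 15 of 42, or 35.7%, against 10.2% of all measured genes. Examples are ATM with NPAT, PRKDC with MCM4 and BRCA2 with ZAR1L. Whether the genes of each pair point away from each other was not checked. The start windows of these 15 genes had a median of −1.97. Of them, 13 were below −1 in both replicates, or 86.7%, against 76.2% of all measured genes with such a neighbour. Those of the other 27 had a median of −1.42. Of these, 18 were below −1 in both replicates, or 66.7%, against 31.4% of all measured genes without such a neighbour. Among all measured genes the medians were −1.88 with such a neighbour and −0.64 without. The median of repair genes with such a neighbour was thus near that of all such genes. The median of those without one was lower than that of all such genes. How far this arrangement or the activity of the genes goes with the low ratios of the list was not tested.

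Outside the 42, a list of 77 other DNA repair and checkpoint genes was also low. Their median was −1.71, against −0.81 for all measured genes. Of the 77, 54 were below −1 in both replicates, or 70.1%, against 42.3% of all measured genes. No base was covered in 71 of the 77, or 92.2%, against 69.5%. ABRAXAS1, a scaffold of a BRCA1-containing complex, was the gene of this list covered over at least 50%. That is 1.3% of the list, against 19.2% of all measured genes. ABRAXAS1 had 58.4% of its annotated span covered and a ratio of −0.46 and −0.33 (mean −0.40, SD 0.09, n = 2). Its canonical transcript was at −1.93 and −1.60 with no base covered, as at MSH6 and ERCC1. Among the 3 lowest were MUS81, a nuclease for branched DNA, at −3.03 and −2.08 (mean −2.55, SD 0.67, n = 2), and UVSSA, which acts in transcription-coupled repair, at −2.57 and −2.42 (mean −2.49, SD 0.10, n = 2).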

How the data were processed

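MacroH2A1 ChIP-seq in IMR90 cells was read from 2 deposited genome segmentations, 1 per ChIP replicate and not pooled. They tile each chromosome and are not peak lists. The submitters' processing notes name CASAVA 1.7 and hg19. For the aligner, duplicate handling, segmentation program and scaling to input, the sources used here give nothing. Per the file contents, the authors deposited for each segment a log2 ratio of ChIP over input, whose base was inferred from the values, and a −log10 p-value, used only to select enriched segments. Replicate 1 held 46951 segments and replicate 2 held 25583. With no read counts, depth is unknown, and genes in the same segment share its value.

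Genes were the protein-coding models of GENCODE release 44 mapped to GRCh37 (hg19), on chromosomes 1 to 22 and X, measured where at least 50% of the span lay in segment blocks of both replicates. A gene value is the base-weighted mean of the log2 ratio, computed per replicate, and the SD is over the 2 replicates. The Ensembl canonical transcript gave the canonical span and start, and the gene span stood in for 278 genes without one, none of them a repair gene of the list. With a single ChIP group no test between samples was run. Members and lists were chosen with earlier results of these data known. Genes named by rule were the 2 highest and 2 lowest of each role, those with any covered base, those whose replicates differed in sign, those with a start window above 0, and, of the other repair genes, those covered over at least 50% and the 3 lowest. Some items that this rule names are left out here. The other repair genes of the list given with values, such as ATM, ATR and BRCA1, were added after their values were seen. Alternatives were each replicate alone, other thresholds, whole segments with their gaps, the canonical transcript, wider spans and other start windows. The calculation of regional values was tested on simulated segments, where 200 of 200 regions matched a base-by-base calculation. That test concerns the arithmetic alone and not the detection of enriched regions. Python 3.11.15, NumPy 2.4.6 and matplotlib 3.10.9 were used. Chromosome Y and the mitochondrial sequence were left out.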

Additional observations from a re-analysis of the deposited data

How the results depend on the processing

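No paired analysis was possible because no result comes from a test and the inputs have no values of their own apart from the ratio. The count of repair genes covered over at least 50% was 3, and 3 to 4 with a replicate left out. It was 1 with a log2 ratio above 0.5 (ERCC1), 0 at a covered share of at least 90%, 1 over canonical transcripts (RAD51B), and 0 in canonical start windows. It stayed between 2 and 4 under the other planned thresholds and spans. The count of other repair genes was 1, and 2 with either replicate left out or at a share of 25%, and 0 at 90% or over canonical transcripts. The count of repair genes with a ratio above 0 in both replicates was 1, and 1 to 3 with a replicate left out. The median of −1.69 was −1.83 over canonical transcripts, −1.47 with 10 kb added on either side, −1.48 as a mean, −1.59 in canonical start windows, and −1.79 to −1.69 with a replicate left out. The count of annotated start windows above 0 was 3, or 1 at canonical starts, and 3 to 5 with a replicate left out. With a replicate left out RAD51C was −0.90 to 0.30 and ERCC1 −0.012 to 0.15, and ERCC1 was −2.30 over its canonical transcript. Of the 25 genes named by rule, 20 moved by less than their SD over the canonical transcript and 25 with whole segments. Canonical start windows, and canonical transcripts for the other repair genes, were chosen after seeing the data. The spread over 2 replicates is the sole error available, and groups of 2 could not be screened for an outlying replicate. Apart from changes of span or window, which read other bases, the cause of each change was not tested.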
